A study of Mus musculus with 6 samples.

Results

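The SLC25 family comprises mostly carriers of the inner mitochondrial membrane, proteins that exchange nucleotides, phosphate, carboxylates, amino acids, cofactors and metal ions between the cytosol and the matrix. The members were taken as every gene of the expression table whose symbol begins with Slc25a, leaving out pseudogene symbols, which gave 47 of 54532 genes. RNA sequencing had been done on mouse CD8 T cells, the cytotoxic lineage, purified from spleen and lymph nodes and stimulated in culture with bead-bound antibodies to CD3 and CD28 for 3 days. Of the 6 libraries, 3 were labelled wild type (WT) and 3 knockout of Ptpmt1 (KO), and both groups had the same stimulation. Ptpmt1 encodes a mitochondrial phosphatase of the synthesis of cardiolipin, the lipid that carriers of the inner membrane bind. The labels give no strain, age, sex, removed exon or driver of the deletion. They also leave unsaid whether each replicate is its own animal, and a p-value here covers the spread among these libraries, which may be technical in part.

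The carriers share a fold of repeated membrane helices and are made in the cytosol, then brought to the inner membrane by the small TIM chaperones and the TIM22 channel. Some act in energy supply, exporting ATP and importing phosphate. Others connect the matrix with cytosolic pathways that dividing T cells use, such as the malate-aspartate shuttle, folate metabolism and the synthesis of arginine, glutathione and heme.

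Rebuilt reads totalled 14932604 to 16819913 per library. FPKM values are fragments scaled to gene length and a library total. That total differed from the rebuilt reads, most of all for KO replicate 2, at 1.31237e+07 against 16819913. For KO replicate 3 it was 1.80474e+07 against 16462539, and for WT replicate 3 1.75606e+07 against 16374530. Against scaling by reads, deposited values thus stood higher in KO replicate 2 and lower in replicate 3 of both groups. How the totals were set is not given in the sources used here. Ptpmt1 had 3.75, 3.84 and 4.13 FPKM in the WT libraries and 1.0004, 1.58 and 1.504 in the KO libraries (log2 fold change -1.26, SE 0.198, limma adjusted p = 0.0884). The groups did not overlap, but the gene missed the threshold of 0.05 over all genes. By an exact permutation test, 2-sided, p was 0.1, and no smaller value is possible with 3 libraries a group. KO replicate 3 stood apart: it had 0 reads of Xist and 1837 of the Y-linked Ddx3y, while the other libraries had 3513 to 8614 and 0, so it differed in sex from them and was not from the animal of another KO library. Mitochondrially encoded genes took 4.40%, 7.53% and 2.38% of reads in KO replicates 1 to 3 and 3.38% to 4.76% in WT. Defining CD8 T cell markers were high in every library (Cd8a at 108.8 to 219.3 FPKM), although the summed FPKM of 6 such markers was 1208 to 1599 in WT and 785 to 1463 in KO, with 0 of 6 higher in the KO mean. Summed markers of CD4 T cells were 1.01 to 2.89 FPKM in WT and 0.427 to 0.554 in KO (0 of 3 higher). Cd4 itself had 29, 35 and 132 reads in WT and 0, 3 and 10 in KO, so most WT reads came from WT replicate 3. Summed markers of B cells were 18.7 to 25.05 FPKM in WT and 13.4 to 15.1 in KO (0 of 5 higher). Those of neutrophils and mast cells were 4.40 to 12.6 in WT and 7.23 to 36.1 in KO (4 of 6 higher), the highest being KO replicate 3. The part of such other cells in the results was not tested, and in bulk RNA fewer cells of a type and less RNA per cell cannot be told apart.

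Of the 47 carriers, 38 had a mean of at least 0.5 FPKM and were tested, which is a statement about level and not about genotype. None of the 38 passed limma at an adjusted p under 0.05, where 0.0395% of all 12654 tested genes did (0.0237% higher and 0.0158% lower in KO), and limma-voom on rebuilt reads also called 0. A weaker criterion, an unadjusted p under 0.05 (nominal from here on), was met by 6 carriers, 3 higher and 3 lower in KO. That is 15.8% of them, against 21.8% of all tested genes (11.5% higher and 10.2% lower), a share below the background. The carriers higher in KO were Slc25a13, Slc25a15 and Slc25a32, and those lower were Slc25a23, Slc25a27 and Slc25a45. With each library rescaled to the same summed FPKM the split was 0 higher and 3 lower; that rescaling took the median over all tested genes from 0.03 to -0.20 on the log2 scale. The median log2 fold change over the 38 carriers was 0.09 as deposited and -0.09 after rescaling, on either scale slightly above that of all genes. Without KO replicate 3 it was 0.000415, below the 0.03 of all genes. For 9 carriers (23.7%) the KO and WT libraries did not overlap, 5 higher and 4 lower, against 27.8% of all tested genes (14.5% higher and 13.3% lower).

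**Figure D1:**
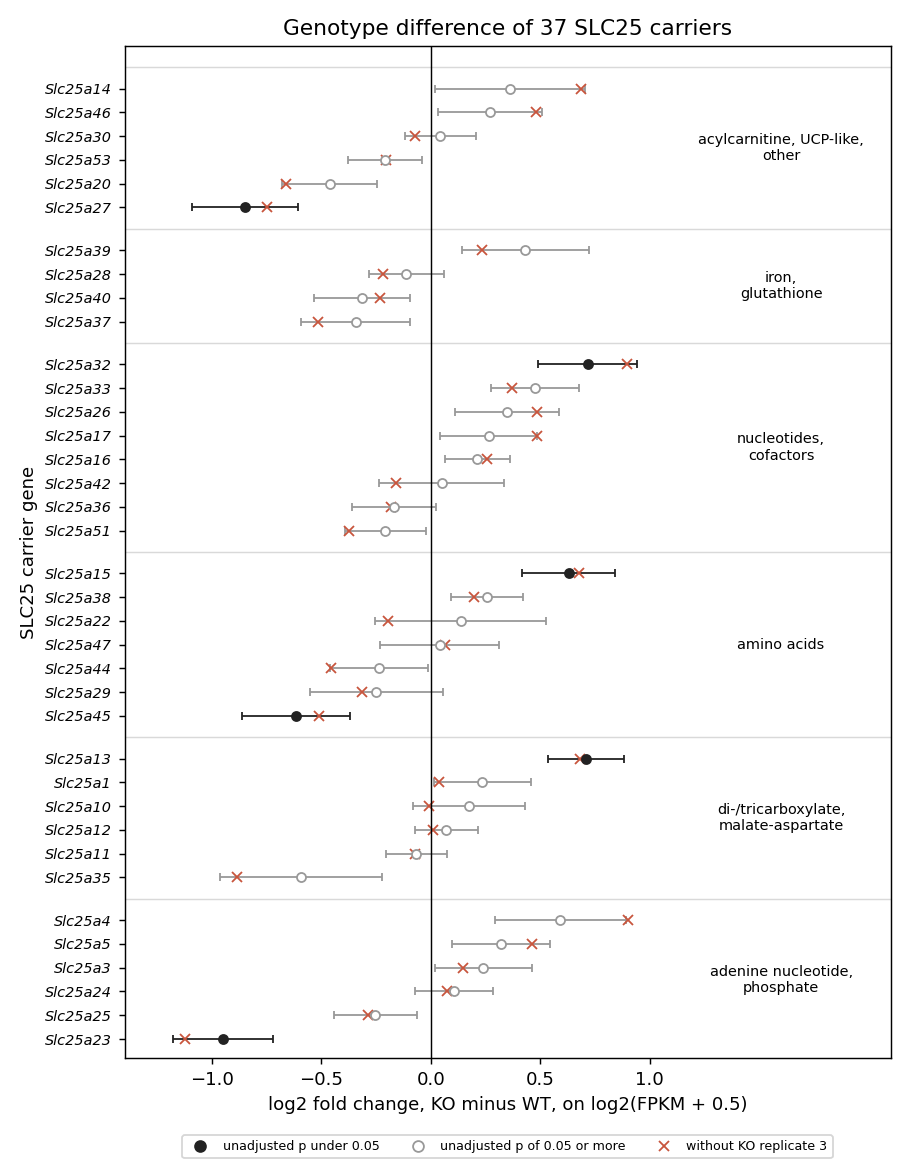
Log2 fold change (KO minus WT, x axis, on log2(FPKM + 0.5)) of 37 of the 38 tested SLC25 carriers, grouped by what they transport. Circles with bars are the limma estimate ± SE over 3 WT and 3 KO libraries, filled where the unadjusted p was under 0.05, and crosses are the estimate without KO replicate 3; the 6 filled circles lie on both sides of 0.

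Mean levels of the tested carriers ran from 0.544 FPKM (Slc25a47) to 580.5 (Slc25a5), and the order at the top was the same in each library. Slc25a5, the adenine nucleotide carrier ANT2 of dividing cells, came first, followed by Slc25a4 (ANT1) and Slc25a3, the phosphate carrier. These genes gave 72.3% to 79.9% of the summed carrier FPKM, and Slc25a5 alone gave 52.0% to 57.03%. The lowest library of Slc25a4, at 101 FPKM, lay above the highest of Slc25a3, at 93.8, and the lowest of Slc25a3, at 58.1, above the highest of the next gene, Slc25a11, at 33.6. From there downwards most neighbours overlapped: Slc25a11 spanned 29.6 to 33.6 FPKM and Slc25a17 19.1 to 31.2. An exception was Slc25a12, at 11.1 to 13.6 FPKM, which lay above the next gene, Slc25a30, at 6.73 to 9.10.

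**Figure D2:**
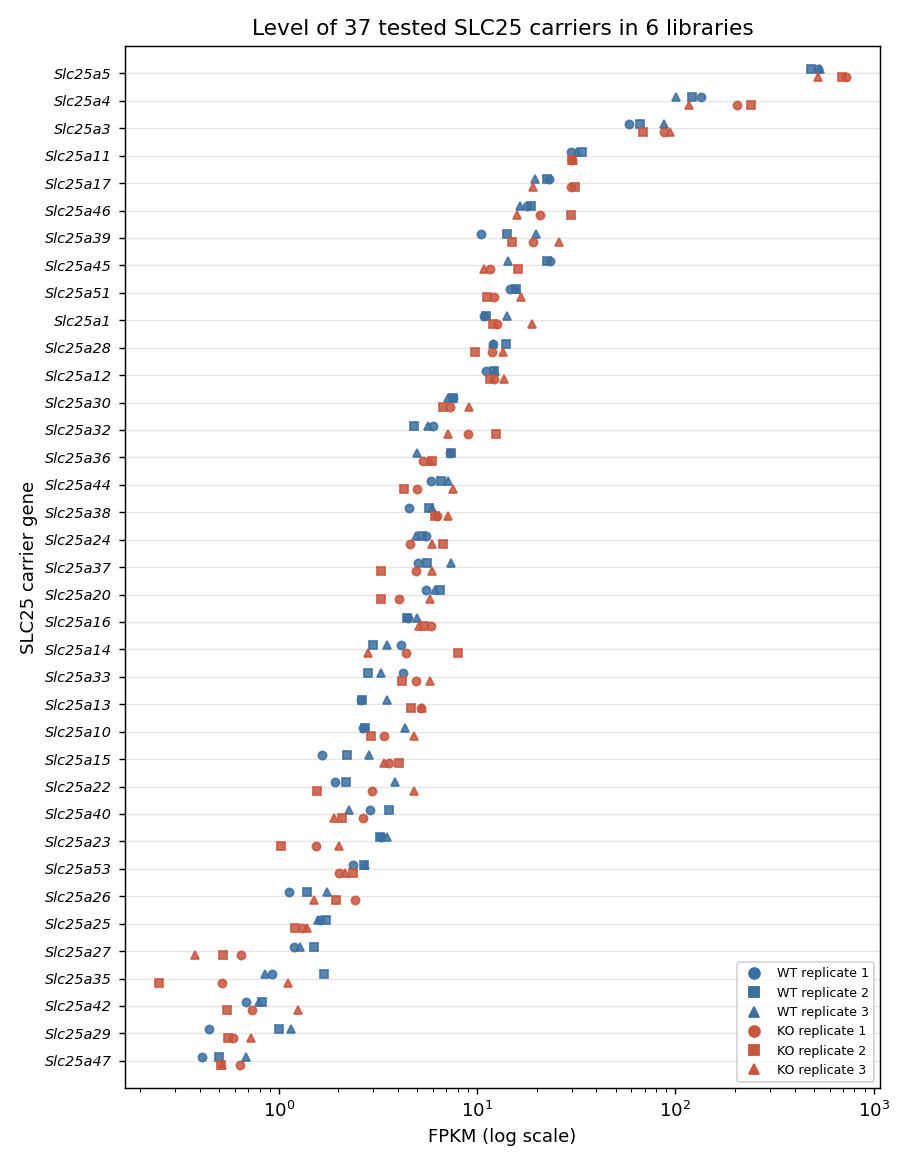
FPKM (x axis, log scale) of 37 of the 38 tested SLC25 carriers in the 3 WT (blue) and 3 KO (red) libraries, ordered by mean level; symbols mark the replicate. Slc25a5, Slc25a4 and Slc25a3 stand above the rest in all 6 libraries, and most carriers lie between 1 and 30 FPKM with mixed WT and KO points.

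Among the adenine nucleotide and phosphate carriers, 6 of 8 were tested, and 1 was nominally lower in KO. Slc25a5 (ENSMUSG00000016319, mm10 chromosome X, 36795651 to 36798807, plus strand) had 522, 484 and 536 FPKM in WT and 726, 691 and 525 in KO. KO replicates 1 and 2 were above every WT library, whereas KO replicate 3 lay within the WT range (log2 fold change 0.32, SE 0.224, adjusted p = 0.437). Slc25a4 (chromosome 8, 46206797 to 46211284, minus strand) likewise had KO replicate 3 within the WT range and the other KO libraries above it, with 135.3, 121.4 and 101 FPKM in WT and 203.8, 240.1 and 116.5 in KO. It was not called over all libraries (log2 fold change 0.59, SE 0.299, limma adjusted p = 0.295). Without KO replicate 3 it was (0.90, limma adjusted p = 0.0384), in a comparison where 13.7% of all genes were. Slc25a4 was picked for description after its values were seen. By deposited FPKM, the KO replicate with the highest Slc25a4 was also the one with the largest mitochondrial share of reads. The KO replicate with the lowest Slc25a4 had the smallest share. In rebuilt reads, the scale of that share, the match at the top did not hold: Slc25a4 had 7550, 7414 and 4949 reads in KO replicates 1 to 3. Whether the mitochondrial share has a part in the difference was not tested. Reads of Slc25a4 and Slc25a5, which are close copies with processed pseudogenes, can be shared. Slc25a3 had 58.1, 66.5 and 87.5 FPKM in WT and 87.3, 68.4 and 93.8 in KO, and the groups overlapped.

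The most abundant carrier is shown by its promoter window (RefSeq, GRCm38.p6, 250 bases before to 50 after the annotated start), at chrX:36795347-36795646, plus strand. Capitals mark a match to TGACNNNGC, the core of the antioxidant response element.
Slc25a5: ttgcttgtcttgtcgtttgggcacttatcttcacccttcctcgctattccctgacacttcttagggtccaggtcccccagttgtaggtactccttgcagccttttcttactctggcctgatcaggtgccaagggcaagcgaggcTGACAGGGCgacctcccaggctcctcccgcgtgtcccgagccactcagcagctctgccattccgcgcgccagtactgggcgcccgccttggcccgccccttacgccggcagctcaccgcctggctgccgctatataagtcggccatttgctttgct

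The calcium-regulated ATP-Mg/phosphate carriers, which set the size of the matrix adenine nucleotide pool, did not move as a unit. Slc25a23 (ENSMUSG00000046329, chromosome 17, 57043711 to 57059863, minus strand) had 3.28, 3.25 and 3.51 FPKM in WT and 1.55, 1.02 and 2.02 in KO. Each KO library was below each WT library, with a WT mean 2.19-fold that of KO (3.34 ± 0.142 and 1.53 ± 0.499, SD, n = 3 each; log2 fold change -0.95, SE 0.229, unadjusted p = 0.00427, limma adjusted p = 0.109). The value rests on 874 reads over the WT and 393 over the KO libraries. Without KO replicate 3 Slc25a23 passed (-1.12, adjusted p = 0.0348), in a comparison where 13.7% of all genes did. Slc25a23 overlaps Crb3 on the opposite strand, a gene of 0.565 ± 0.325 FPKM in WT and 0.217 ± 0.0247 in KO, and the sources used here do not give the strand setting of the counting. Slc25a25 was lower in each KO library too, at 1.62, 1.72 and 1.59 FPKM in WT and 1.31, 1.202 and 1.38 in KO, with a limma adjusted p of 0.468. Naif1 overlaps Slc25a25 on the opposite strand and was also lower in each KO library, at 2.30 ± 0.440 FPKM in WT and 1.41 ± 0.383 in KO. Its part in the values of Slc25a25 was not tested. Slc25a24, the third of these carriers, had 5.54, 5.28 and 4.95 FPKM in WT and 4.59, 6.71 and 5.96 in KO. Per library, the ratio of Slc25a23 to Slc25a24 took the values 0.592, 0.615 and 0.709 for WT and 0.337, 0.152 and 0.339 for KO, a description with no test.

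Slc25a23, the carrier with the smallest p among those lower in KO, has its start at the promoter window chr17:57059814-57060113, minus strand, where the capitals again mark the antioxidant response letters, read on the other strand.
Slc25a23: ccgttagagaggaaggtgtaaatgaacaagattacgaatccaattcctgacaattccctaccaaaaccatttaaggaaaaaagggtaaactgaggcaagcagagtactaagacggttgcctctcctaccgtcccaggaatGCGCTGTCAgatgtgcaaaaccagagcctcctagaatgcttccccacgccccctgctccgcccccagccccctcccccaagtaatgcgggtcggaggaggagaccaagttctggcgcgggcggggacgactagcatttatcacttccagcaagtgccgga

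Of the carboxylate and malate-aspartate shuttle carriers, 6 of 8 were tested, and 1 was nominally higher in KO. That carrier was Slc25a13 (ENSMUSG00000015112, chromosome 6, 6041218 to 6217173, minus strand), which encodes citrin, an aspartate/glutamate carrier of the shuttle that brings cytosolic reducing equivalents into mitochondria. It had 2.59, 2.64 and 3.51 FPKM in WT and 5.24, 4.63 and 5.25 in KO. Each KO library exceeded each WT library, and the mean was 1.73-fold that of WT (2.91 ± 0.517 and 5.04 ± 0.352, SD, n = 3 each; log2 fold change 0.71, SE 0.175, unadjusted p = 0.00492, limma adjusted p = 0.111). Its log2 fold change ranged from 0.47 to 0.83 over the other settings apart from sample weights, which gave 0.85. Slc25a12, which encodes the related carrier aralar, had 11.1, 12.2 and 12.3 FPKM in WT and 12.2, 11.6 and 13.6 in KO, and the groups overlapped (log2 fold change 0.07, SE 0.145). The ratio of Slc25a13 to Slc25a12 had no overlap between groups, with 0.233, 0.216 and 0.286 for the WT libraries and 0.428, 0.399 and 0.386 for the KO libraries. Aralar remained the more abundant message of the pair in every library.

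The citrin promoter window, at chr6:6217124-6217423, minus strand, is shown because the gene had the smallest p among carriers higher in KO. Capitals mark the E-box CACGTG, a motif bound by MYC and related factors.
Slc25a13: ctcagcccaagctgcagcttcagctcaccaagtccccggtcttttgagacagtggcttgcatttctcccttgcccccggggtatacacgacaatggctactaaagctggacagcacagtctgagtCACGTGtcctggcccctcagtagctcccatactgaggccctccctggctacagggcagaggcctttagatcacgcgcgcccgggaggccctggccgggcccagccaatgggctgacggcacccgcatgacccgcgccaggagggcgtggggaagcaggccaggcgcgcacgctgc

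None of the other carriers of this group differed nominally. Slc25a11, the oxoglutarate/malate partner of the same shuttle and the highest of the group, had 29.6, 33.6 and 31.9 FPKM in WT and 30.1, 30.05 and 30.5 in KO (log2 fold change -0.07, SE 0.140). It overlaps Rnf167 on the opposite strand, a gene of 21.0 ± 2.31 FPKM in WT and 10.5 ± 1.53 in KO. Slc25a1, which exports citrate for fatty acid synthesis, had 10.8, 11.1 and 14.2 FPKM in WT and 12.6, 11.97 and 18.8 in KO, with replicate 3 the highest of both groups. Slc25a10, the dicarboxylate carrier, showed the same feature, at 2.67, 2.73 and 4.32 FPKM in WT and 3.402, 2.91 and 4.83 in KO. The orphan carrier Slc25a35 was low and scattered, with 0.930, 1.68 and 0.852 FPKM in WT and 0.518, 0.249 and 1.12 in KO, from 206 reads over WT and 116 over KO. Its groups overlapped through KO replicate 3 (log2 fold change -0.59, SE 0.371, limma adjusted p = 0.386; -0.99 with limma-voom).

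Of the 10 amino acid carriers found, 7 were tested, with 1 nominally higher and 1 nominally lower in KO. Slc25a15 (ENSMUSG00000031482, chromosome 8, 22375551 to 22398597, minus strand), the ornithine carrier that links mitochondria with the urea cycle and polyamine precursors, had 1.65, 2.198 and 2.86 FPKM in WT and 3.59, 4.03 and 3.396 in KO. All KO libraries lay above all WT libraries (means 2.24 ± 0.608 and 3.67 ± 0.327, SD, n = 3 each; log2 fold change 0.63, SE 0.213, unadjusted p = 0.0214, limma adjusted p = 0.164). WT replicate 3 was nearest to the KO values. Slc25a45, a carrier placed with transporters of basic amino acids by sequence, went the other way, with 23.4, 22.6 and 14.4 FPKM in WT and 11.6, 16.1 and 10.9 in KO (log2 fold change -0.62, SE 0.248, unadjusted p = 0.0422, limma adjusted p = 0.213). Here the groups overlapped, because WT replicate 3 lay below KO replicate 2. It was the most abundant carrier of this group by mean level.

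The ornithine carrier window, at chr8:22398572-22398871, minus strand, is shown beside that of citrin. None of the motifs searched matched in it, so it has no capitals; another annotated window of Slc25a15 holds the E-box.
Slc25a15: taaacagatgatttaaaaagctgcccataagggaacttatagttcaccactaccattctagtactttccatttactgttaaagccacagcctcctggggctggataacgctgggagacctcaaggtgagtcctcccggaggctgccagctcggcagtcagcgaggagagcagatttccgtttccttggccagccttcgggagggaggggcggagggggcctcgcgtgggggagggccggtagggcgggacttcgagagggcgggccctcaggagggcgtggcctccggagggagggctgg

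Slc25a38, the glycine carrier of heme synthesis, was also higher in each KO library, at 4.56, 5.71 and 5.93 FPKM in WT and 6.29, 6.16 and 7.12 in KO, with an unadjusted p of 0.163. The glutamate carrier Slc25a22 was among the most scattered members, with 1.92, 2.18 and 3.87 FPKM in WT and 2.95, 1.55 and 4.81 in KO, the third replicate being highest in both groups. Slc25a44, the branched-chain amino acid carrier, had 5.89, 6.55 and 7.11 FPKM in WT and 4.97, 4.26 and 7.54 in KO. Its groups overlapped because KO replicate 3 was the highest of all 6 libraries. Slc25a29 and Slc25a47 were low, at 0.445 to 1.16 and 0.409 to 0.687 FPKM over all libraries.

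The nucleotide and cofactor carriers were all tested, 9 of 9, and 1 was nominally higher in KO. Slc25a32 (ENSMUSG00000022299, chromosome 15, 39091231 to 39112716, minus strand), the carrier of folate and FAD into mitochondria, had 6.02, 4.80 and 5.67 FPKM in WT and 8.99, 12.5 and 7.13 in KO. The groups did not overlap, and the KO mean was 1.74-fold that of WT (5.49 ± 0.627 and 9.55 ± 2.73, SD, n = 3 each; log2 fold change 0.72, SE 0.226, unadjusted p = 0.0157, limma adjusted p = 0.151). Without KO replicate 3 it passed (0.90, limma adjusted p = 0.0412), in a comparison where 13.7% of all genes did. The order of the KO libraries was that of their mitochondrial read share, whose part was not tested. Slc25a17, a peroxisomal carrier of cofactors and the most abundant of the group, had 23.1, 22.5 and 19.6 FPKM in WT and 29.9, 31.2 and 19.1 in KO. Its log2 fold change of 0.26 (SE 0.221) was -0.00294 after rescaling to equal totals.

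The median of these 9 carriers was 0.26 as deposited and -0.00294 rescaled, where that of all genes was 0.03 and -0.20. Slc25a33, a pyrimidine nucleotide carrier, had 4.24, 2.83 and 3.29 FPKM in WT and 4.95, 4.1996 and 5.78 in KO, so only 1 WT library reached into the KO range (unadjusted p = 0.0512). Slc25a36, its relative with the same substrates, had 7.29, 7.42 and 4.96 FPKM in WT and 5.34, 5.95 and 5.82 in KO. Set against each other, Slc25a33 and Slc25a36 gave ratios of 0.582, 0.381 and 0.664 for WT and 0.927, 0.706 and 0.994 for KO, with no overlap. Slc25a16 was slightly higher in each KO library, at 5.88, 5.38 and 5.11 against 4.47, 4.45 and 5.01 FPKM in WT. Slc25a51, the NAD carrier, had 14.6, 15.7 and 15.7 FPKM in WT and 12.1, 11.3 and 16.8 in KO. Slc25a26, the carrier of S-adenosylmethionine, averaged 1.43 ± 0.312 FPKM (SD, n = 3) over the WT libraries and 1.96 ± 0.460 over the KO libraries, and the groups overlapped. Slc25a42, the coenzyme A carrier, was the lowest of the group at 0.546 to 1.25 FPKM over all libraries.

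All 4 iron and glutathione carriers were tested and none differed nominally. Slc25a39, a carrier needed for mitochondrial glutathione, was the highest, with 10.4, 14.1 and 19.9 FPKM in WT and 19.1, 14.9 and 25.9 in KO (log2 fold change 0.43, SE 0.291, adjusted p = 0.421). The groups overlapped, and the third replicate was the highest of each. Slc25a40, the paralogue, had 2.88, 3.59 and 2.25 FPKM in WT and 2.67, 2.09 and 1.91 in KO. The ratio of Slc25a39 to Slc25a40 was 3.62 and 3.93 in WT replicates 1 and 2 and 8.82 in WT replicate 3, against 7.17, 7.14 and 13.5 in KO, so replicate 3 was again the highest of both groups. The mitoferrin genes, whose products import iron, had 5.04, 5.602 and 7.41 FPKM in WT and 4.91, 3.27 and 5.94 in KO for Slc25a37, with overlapping groups. Slc25a28 had 12.1, 13.9 and 11.998 in WT and 11.9, 9.81 and 13.6 in KO. Slc25a37 is abundant in red cell precursors; the summed FPKM of 8 erythroid markers was 2.87 to 7.402 in WT and 4.802 to 10.9 in KO, and 6 of 8 had a higher KO mean. Hbb-bs, the marker with the highest KO mean, had 10, 32 and 55 reads in WT and 75, 82 and 41 in KO. Slc4a1, the anion exchanger of red cells, had 0 reads in each WT library and 10, 0 and 2 in KO. Hba-a1 and Alas2 had 65 and 17 reads over WT and 56 and 12 over KO. The part of such cells in the values of Slc25a37 was not tested.

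**Figure D3:**
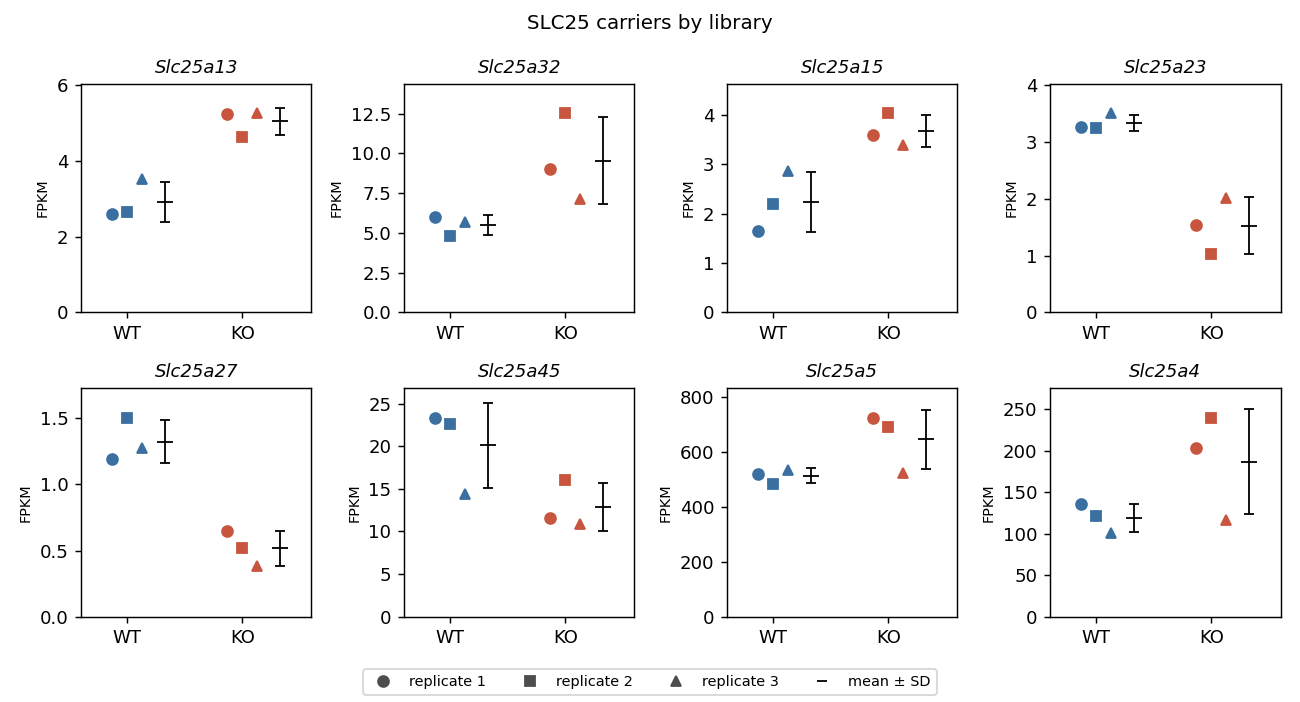
FPKM (y axis, from 0) of 8 SLC25 carriers in 3 WT (blue) and 3 KO (red) libraries, with symbols for the replicate and the black bar for mean ± SD. Slc25a13, Slc25a32 and Slc25a15 are higher and Slc25a23 and Slc25a27 lower in every KO library; in Slc25a45, Slc25a5 and Slc25a4 the WT and KO points overlap.

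In the remaining group, of the acylcarnitine carrier, the uncoupling-protein-like carriers and others, 6 of 8 were tested, and 1 was nominally lower in KO. Slc25a27 (ENSMUSG00000023912, chromosome 17, 43641891 to 43667214, minus strand), also called UCP4 and best known from brain, had 1.195, 1.51 and 1.27 FPKM in WT and 0.646, 0.523 and 0.380 in KO. Every KO library was below every WT library, with a WT mean 2.57-fold that of KO (log2 fold change -0.85, SE 0.243, unadjusted p = 0.0101, limma adjusted p = 0.130). The depth behind it was low, at 77, 91 and 88 reads in WT and 40, 27 and 27 in KO, and the log2(FPKM + 0.5) scale understates a change at this level. Slc25a14, the related UCP5, had 4.13, 3.002 and 3.52 FPKM in WT and 4.41, 8.03 and 2.81 in KO, so its KO libraries spanned the whole WT range. The ratio of Slc25a27 to Slc25a14 was at most 0.147 in a KO library and at least 0.289 in a WT library. Slc25a30, the third of this branch, had 7.58, 7.59 and 7.13 FPKM in WT and 7.34, 6.73 and 9.10 in KO.

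Slc25a46, an outer membrane protein that acts in mitochondrial dynamics, was the most abundant of the group, with 17.9, 18.7 and 16.5 FPKM in WT and 20.7, 29.8 and 15.9 in KO (log2 fold change 0.27, SE 0.238, adjusted p = 0.537). KO replicate 3 was the lowest of all libraries. Slc25a20, which takes acylcarnitines into the matrix for fatty acid oxidation, had 5.55, 6.53 and 6.15 FPKM in WT and 4.05, 3.27 and 5.79 in KO. KO replicates 1 and 2 were below every WT library and KO replicate 3 was not (log2 fold change -0.46, SE 0.218, unadjusted p = 0.0719; without KO replicate 3 -0.66, adjusted p = 0.0508). Slc25a53 was slightly lower in each KO library, at 2.01, 2.36 and 2.17 against 2.38, 2.71 and 2.71 FPKM. Zcchc18 overlaps Slc25a53 on the opposite strand, at 3.81 ± 0.462 FPKM in WT and 3.32 ± 0.393 in KO, with overlapping groups. The part of Zcchc18 in the values of Slc25a53 was not tested. Slc25a5, Slc25a14, Slc25a43 and Slc25a53 lie on the X chromosome; the part of the Xist difference of KO replicate 3 in their values was not tested.

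The 9 carriers below the filter were close to silent. Slc25a54 had 0 reads in all libraries. Slc25a31, the testis form of the adenine nucleotide carrier, had 2 reads in all, Slc25a41 and Slc25a48 had 1 each, Slc25a21 had 7, Slc25a2 had 8, Slc25a34 had 11 and Slc25a43 had 20. Slc25a18, a second glutamate carrier typical of astrocytes, had 6, 22 and 8 reads in WT and 0, 2 and 1 in KO. That is a WT level 11.4-fold that of KO, with a 95% exact interval of 3.61 to 58 that covers counting error only, and Slc25a18 overlaps the expressed Atp6v1e1 on the opposite strand.

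KO libraries scattered more than WT libraries. The SD of log2 values was larger in KO for 24 of 38 carriers (63.2%), close to the 67.7% of all tested genes. KO replicate 3 was the library farthest from its group's median for 19 of the 38 carriers, KO replicate 2 for 14 and KO replicate 1 for 5. The direction was mixed: for 21 carriers KO replicate 3 was highest and KO replicate 2 lowest, as in Slc25a39 and Slc25a22, and for 7 the order was the opposite, as in Slc25a4 and Slc25a32. In WT, replicate 3 was farthest from its group's median for 19 carriers. Without KO replicate 3, limma called 3 carriers (7.89%), Slc25a4 and Slc25a32 higher and Slc25a23 lower, against 13.7% of all tested genes (8.12% higher and 5.58% lower). Nominal differences then numbered 14 (36.8%), 8 higher and 6 lower, against 35% of all tested genes (19.5% higher and 15.5% lower). With limma sample weights, which gave KO replicate 3 the least weight, 20 carriers were called, but so were 53% of all tested genes.

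**Figure D4:**
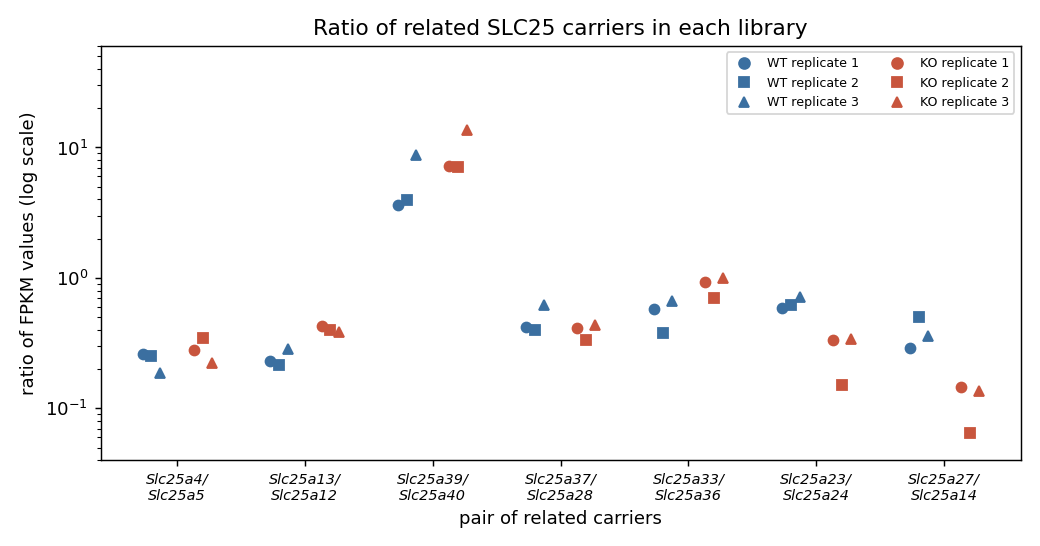
Ratio of FPKM values (y axis, log scale) of 7 pairs of related SLC25 carriers in each WT (blue) and KO (red) library; symbols mark the replicate. The WT and KO points separate for Slc25a13/Slc25a12, Slc25a33/Slc25a36, Slc25a23/Slc25a24 and Slc25a27/Slc25a14 and overlap for the other pairs. Slc25a13, Slc25a23 and Slc25a27 already separated on their own, so their ratios restate that. The pairs were chosen after their values were seen, and no share over other gene pairs was computed.

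Genes that serve the carriers or share their membranes were read from a list of 36, with 33 tested: import factors of the carrier route, porins, the pyruvate carrier, sideroflexins, the calcium uniporter, transporters of the ABC type and shuttle enzymes. Limma called 0 of the 33. Nominally 6 were higher and 2 (Slc8b1 and Sfxn3, named after their values were seen) lower, where 11.5% and 10.2% of all tested genes were, and the median log2 fold change was 0.21. The genes with the smallest p were the small TIM chaperones that escort carrier precursors across the intermembrane space. Timm10 had 12.6, 9.59 and 16.4 FPKM in WT and 31.9, 48.99 and 28.1 in KO (log2 fold change 1.45, SE 0.277, adjusted p = 0.0887). Its partner Timm9 had 4.36, 3.65 and 4.43 in WT and 10.2, 11.3 and 7.38 in KO (1.11, SE 0.199, adjusted p = 0.0884). Both were higher in each KO library and both were called without KO replicate 3 (limma adjusted p = 0.0344 for each). In that comparison 13.7% of all tested genes were called, 8.12% as higher. The channel gene Timm22, named after its value was seen, had 10.96, 9.902 and 11.4 in WT and 17.8, 22.1 and 12.3 in KO. Limma put Timm22 at 0.63 (adjusted p = 0.182). Timm29, from the same list and also named after its values were seen, was not higher in KO. It had 11.4, 12.4 and 14.7 FPKM in WT and 11.8, 10.02 and 16.3 in KO, with overlapping groups (-0.04, adjusted p = 0.933).

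Sfxn1, the mitochondrial serine transporter, had 6.41, 6.31 and 9.69 FPKM in WT and 12.9, 12.05 and 11.4 in KO (adjusted p = 0.133), and the porin Vdac3 had 21.8, 20.2 and 19.3 in WT and 36.8, 44.9 and 25.01 in KO (adjusted p = 0.149). The groups did not overlap for either gene. Of 5 family members with other names, 3 were tested and 0 called. Mtch2, an outer membrane insertase, had 9.14, 8.27 and 8.81 FPKM in WT and 15.8, 14.3 and 10.1 in KO (unadjusted p = 0.0229). Mtch1 had 43.9, 43.3 and 54.9 in WT and 52.95, 53.8 and 45.3 in KO. Ucp2, the uncoupling protein of immune cells, had 39.1, 40.7 and 47.4 FPKM in WT and 32.3, 23.7 and 43.9 in KO, and Ucp1 had none.

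Promoter windows were found for 36 of the 47 carriers, 46 windows in all, and 4 motifs were searched on both strands. The ATF4/CHOP composite TGATGNAA was in 0 of the 46 windows, against 3.97% of 32851 windows of all genes. The E-box CACGTG was in 17.4% of carrier windows and 7.15% of all, among them those of Slc25a13, Slc25a33 and Slc25a36. The antioxidant response core TGACNNNGC was in 26.1% and 12.4%, and the palindromic motif of NRF1 in 4.35% and 4.6%; carrier windows were richer in G and C, with a median of 60.1% against 52.7%. These shares describe letters in 300-base windows. The windows with an E-box belong to carriers higher in KO, such as Slc25a13, and to others that were not, such as Slc25a36.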

How the data were processed

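The authors deposited 1 table of FPKM values per gene and library, with gene length in bases, which was used only to rebuild reads. The submitters' processing notes name HISAT2 2.0.5, the build mm10, featureCounts 1.5.0-p3, Trim Galore and DESeq2, and do not state what each did. Per the labels' protocols the mRNA kit was stranded. Annotation release and strand setting: not given in the sources used here. Columns named for PTPMT1 without WT were taken as the KO samples.

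Values were analysed as log2(FPKM + 0.5) for 12654 genes with a mean of at least 0.5 FPKM. Limma 3.58.1 in R 4.3.3 was used (trend, 2-sided, genotype as the only term, Benjamini-Hochberg adjustment over all tested genes). The log2(FPKM + 0.5) scale understates changes of low genes. On simulated data this procedure called 14 of 100 genes changed 2-fold and 79 of 100 changed 4-fold, with 7 of 12454 unchanged genes. Most 2-fold changes would thus be missed. The simulation drew genes independently with the same spread in WT and KO. It held neither the larger scatter of the KO libraries nor a library of the other sex, so its rates may not carry over. FPKM times length fell on whole multiples of 1 step (tolerance 0.05) for at least 99.998% of values, from which reads were rebuilt. Coordinates are from GENCODE M21 (mm10), counted from 1. Members, lists and tests were chosen with earlier results of these data known. Values per library were given for carriers with an unadjusted p under 0.05 and groups that did not overlap and for the highest carrier of each group; the other carriers shown per library, and the ratios, were chosen after their values were seen. Up to 4 partner genes of smallest p were named. Alternatives covered the pseudocount, filter, scaling, limma-voom, sample weights, a replicate block and leaving out each library. The values of 1 tested carrier, which is in the counts and medians, are not reported here.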

Additional observations from a re-analysis of the deposited data

How the results depend on the processing

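Over the alternatives other than sample weights, 0 carriers were called except without KO replicate 3. Leaving out each library gave 0 to 2 carriers called higher and 0 to 1 called lower. At an unadjusted p under 0.05 it gave 1 to 8 higher and 2 to 6 lower. The median log2 fold change was then 0.000415 to 0.12, and the log2 fold change of Ptpmt1 was -1.34 to -1.11. The limma adjusted p of Ptpmt1 was 0.0344 without KO replicate 3 and 0.0718 to 0.427 without each of the other libraries. Without WT replicate 2 there was 1 carrier higher at an unadjusted p under 0.05. Rescaled to equal totals, 0 were higher at that p and the median log2 fold change was -0.0924; with a filter at a mean of 1 FPKM it was 0.17. The sign changed with the scaling for 11 of 38 carriers; among those named by the rule, Slc25a17 was -0.00294 at equal totals. Limma sample weights, estimated gene by gene a choice made after seeing that the default estimate did not converge, gave KO replicate 1 a weight of 9.10 and KO replicate 3 one of 0.192. They called 11 carriers higher and 9 lower (13 and 10 at an unadjusted p under 0.05) along with 53% of all genes, and Ptpmt1 at -1.501. Same-numbered libraries had correlations of 0.13, 0.07 and 0.33 between their deviations from the group means, and WT replicate 1 correlated best with KO replicate 2, so the numbers were not taken as pairs; the replicate block gave 5 carriers higher at an unadjusted p under 0.05 and 0 called. Depth limits Slc25a27 most among the carriers that differed nominally, with 27 to 91 reads per library.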
